A study of Mus musculus with 12 samples.

Results

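The genes described here encode the hypoxia-inducible factor (HIF) system, namely the HIF subunits, the enzymes that sense oxygen for them, and a pair of secreted angiogenic outputs. They were found by symbol, through the Ensembl identifiers of the count tables and the GENCODE annotation of mouse genome GRCm38, and number 10 of the 55487 genes counted. Poly(A) RNA was sequenced in 12 libraries of mouse cells from 2 experiments, which ask how macrophages change after loss of the ovaries and how mesenchymal stem cells (MSCs) respond to macrophages. Levels are given as CPM, the counts of a gene relative to a library size normalized within each experiment by the TMM method of edgeR, and as CPM per kb of gene length where 1 gene is set against another.

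HIF is a transcription factor made of an oxygen-regulated alpha subunit, HIF1A or EPAS1 (also called HIF-2 alpha), and the constant partner ARNT. When oxygen is available, the prolyl hydroxylases EGLN1, EGLN2 and EGLN3 mark the alpha subunit, VHL then directs it to the proteasome, and HIF1AN hydroxylates an asparagine that blocks its activity. This control acts on protein, so RNA counts do not measure it. In macrophages, Hif1a is also induced by inflammatory stimuli such as lipopolysaccharide (LPS), and succinate, which inhibits the prolyl hydroxylases, can stabilize its protein.

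The first experiment held bone marrow macrophages (BMMs) of C57BL/6 mice, grown out of marrow with macrophage colony-stimulating factor, from 3 ovariectomized (OVX) and 3 sham-operated samples. The methods describe the mice as female, and the labels give an age of 8 weeks for all libraries. The methods place the ovariectomy itself at 8 weeks and do not state when the marrow for these libraries was taken. The second held MSCs of C57BL/6 mice in 3 groups of 2 libraries, namely MSC (cultured alone), MSC+RAW-TW (untreated RAW264.7 cells on the other side of a transwell membrane) and MSC+RAW-LPS-TW (the same set-up after LPS treatment of the RAW264.7 cells). RAW264.7 is a male mouse macrophage-like leukemia line. The MSCs were marrow cells kept for adhering to plastic and passaged, with no cell sorting described for them. The labels do not say whether libraries of a group came from separate animals or cultures. The study's legends give n = 3 for the RNA-seq of both experiments, although each MSC group here has 2 libraries. They speak of independent experiments without tying libraries to them. The p-values thus measure the spread between libraries, which may be technical.

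Libraries held between 17012923 and 45367105 counts. Sham replicates 2 and 3, and the MSC+RAW-TW libraries a and b, differed far less than the other pairs of libraries within a group, so each pair was counted as 1 sample. This left n = 3 for OVX, 2 for sham, 2 for MSC, 1 for MSC+RAW-TW and 2 for MSC+RAW-LPS-TW, and the lone MSC+RAW-TW sample was assumed to vary like the other MSC groups. That sample also stood apart in the share of counts from the mitochondrial genome, which was 0.16% to 0.17% against 0.53% to 0.75% in the other MSC libraries. Ribosomal RNA genes, nuclear and mitochondrial, took 1.91% to 1.93% of its counts, 4.14% to 4.83% in MSC, 5.67% to 8.03% in MSC+RAW-LPS-TW, 2.56% to 2.78% in OVX and 3.22% to 5.7% in sham, and the part of these shares in the results was not tested. The 12 macrophage markers all reached 1 CPM in every library of both experiments. Their summed level in the libraries labelled MSC, with no macrophage added, was 28100 CPM in each, of which Lyz2 gave 21600 and 21700 CPM. The 13 stromal markers summed to 2730 to 2870 CPM there. Of these, 11 reached 1 CPM in both MSC libraries, with Col1a2 at 880 and 925 CPM and Pdgfrb at 161 and 157 CPM, and the 2 that did not were Thy1 (0.293 to 0.449 CPM) and Lum (0.286 to 0.499 CPM). Ptprc, which encodes the blood cell surface protein CD45, stood at 167 and 171 CPM in MSC. The methods describe the MSCs as without CD45 on flow cytometry. The BMM libraries held more of the same stromal markers, at 7270 to 8320 CPM. The Y-linked genes Ddx3y, Eif2s3y, Kdm5d and Uty were expressed in all 6 libraries labelled MSC or co-culture, at a sum of 63.4 to 125 CPM, against at most 0.0523 CPM in the BMMs. Xist, the transcript of the inactive X chromosome in female cells, lay at 0 to 0.66 CPM in those 6 libraries and at 95.7 to 221 CPM in the BMMs. The libraries labelled MSC thus held Y-linked transcripts and under 1 CPM of Xist, although the methods name female mice, and macrophage transcripts in all 3 groups. Which cells gave this RNA was not tested, so values of the second experiment are those of the libraries labelled MSC, MSC+RAW-TW and MSC+RAW-LPS-TW. Stromal and macrophage transcripts were thus found together in both experiments, and their part in the results below was not tested. In these bulk samples, fewer cells of a type and less RNA per cell cannot be told apart.

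The starts of 5 of the genes are shown because these genes were called in OVX against sham or in a comparison of MSC+RAW-LPS-TW. Of the 10 genes, 9 had an entry among the RefSeq promoter windows of GRCm38.p6. Each stretch is the 250 bases before the RefSeq start, read 5′ to 3′ on the gene's strand. Capitals mark the core of the hypoxia response element, ACGTG or GCGTG, on either strand, so that CACGT and CACGC are its reverse complements.
Hif1a, chr12:73907617-73907866, plus strand: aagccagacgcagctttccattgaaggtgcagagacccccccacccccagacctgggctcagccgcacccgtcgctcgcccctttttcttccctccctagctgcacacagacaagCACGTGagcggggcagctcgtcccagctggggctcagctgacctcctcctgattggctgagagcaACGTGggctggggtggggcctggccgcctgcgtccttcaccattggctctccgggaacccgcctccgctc
Egln2, chr7:27166803-27167052, minus strand: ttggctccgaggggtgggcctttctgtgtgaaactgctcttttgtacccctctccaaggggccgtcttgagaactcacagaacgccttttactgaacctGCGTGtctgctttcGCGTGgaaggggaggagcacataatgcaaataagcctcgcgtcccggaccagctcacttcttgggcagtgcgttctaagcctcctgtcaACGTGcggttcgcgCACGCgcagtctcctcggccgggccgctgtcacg
Egln3, chr12:54203875-54204124, minus strand: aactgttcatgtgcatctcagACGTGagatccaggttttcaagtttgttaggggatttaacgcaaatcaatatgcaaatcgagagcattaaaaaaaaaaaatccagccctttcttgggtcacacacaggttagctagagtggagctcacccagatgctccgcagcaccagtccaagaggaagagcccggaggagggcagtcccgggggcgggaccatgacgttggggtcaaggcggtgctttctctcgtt
Vegfa, chr17:46032378-46032627, minus strand: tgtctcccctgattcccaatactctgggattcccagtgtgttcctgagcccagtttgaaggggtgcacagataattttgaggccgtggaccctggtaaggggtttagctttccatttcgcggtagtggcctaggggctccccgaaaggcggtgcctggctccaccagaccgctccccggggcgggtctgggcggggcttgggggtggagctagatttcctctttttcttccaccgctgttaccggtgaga
Adm, chr7:110627407-110627656, plus strand: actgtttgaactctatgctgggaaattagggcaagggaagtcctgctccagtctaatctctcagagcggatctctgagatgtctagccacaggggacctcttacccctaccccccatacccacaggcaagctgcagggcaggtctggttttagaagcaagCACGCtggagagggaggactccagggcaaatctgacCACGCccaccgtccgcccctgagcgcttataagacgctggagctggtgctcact

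The Hif1a window held 3 matches, of which 2 are the overlapping strands of a CACGTG palindrome (the E-box) and the other lies 70 bases before the start. Egln2 held 4 matches, Adm 2 (90 and 54 bases before the start) and Egln3 1, at 229 bases before it. The Vegfa window shown held none, which says only that these letters are not in these bases. The window of its other RefSeq start, which lies inside the gene, held 2. The other Egln2 window, also inside its gene, held 1. Of all 32851 RefSeq windows of the same length, 38.6% held at least 1 match, 16.7% at least 2 and 6.58% at least 3, so single matches are common. The match is a description of letters and not of binding. The Hif1a window lies inside the Ensembl gene, whose first annotated exon starts further upstream.

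Calls required a change of 2-fold or more together with an adjusted p of 0.05 or less from the edgeR quasi-likelihood test, which is two-sided and was adjusted by Benjamini-Hochberg over all genes tested. In OVX against sham BMMs, 1 of the 10 genes was called higher (Hif1a) and 1 lower (Egln2), where 5.39% of the 16768 genes tested were called higher and 3.08% lower. Over all genes these were 903 higher and 516 lower, against 199 and 342 once trends with GC content and length, described below, were removed. With no fold limit, 3 of the 10 passed (Hif1a, Egln2 and Adm), against 13.1% of all genes. In MSC+RAW-LPS-TW against MSC, 3 were called higher (Hif1a, Egln3 and Vegfa) and none lower, against 5.85% and 5.09% of 20499 genes. With no fold limit 6 passed, all higher, against 20.9%. In MSC+RAW-LPS-TW set against MSC+RAW-TW, 4 were called higher (the same 3 and Adm), against 15.4% of genes called higher and 12% lower, and 7 passed with no fold limit, against 40.2%. In MSC+RAW-TW against MSC, 2 were called lower (Arnt and Adm) and none higher, against 9.59% of genes lower and 6.80% higher. With no fold limit 4 passed there, against 28.6%. The 3 MSC comparisons share libraries, so they are not independent of each other. The median log2 fold change of all genes was -0.13 in MSC+RAW-TW against MSC and 0.14 in MSC+RAW-LPS-TW set against MSC+RAW-TW.

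**Figure D1:**
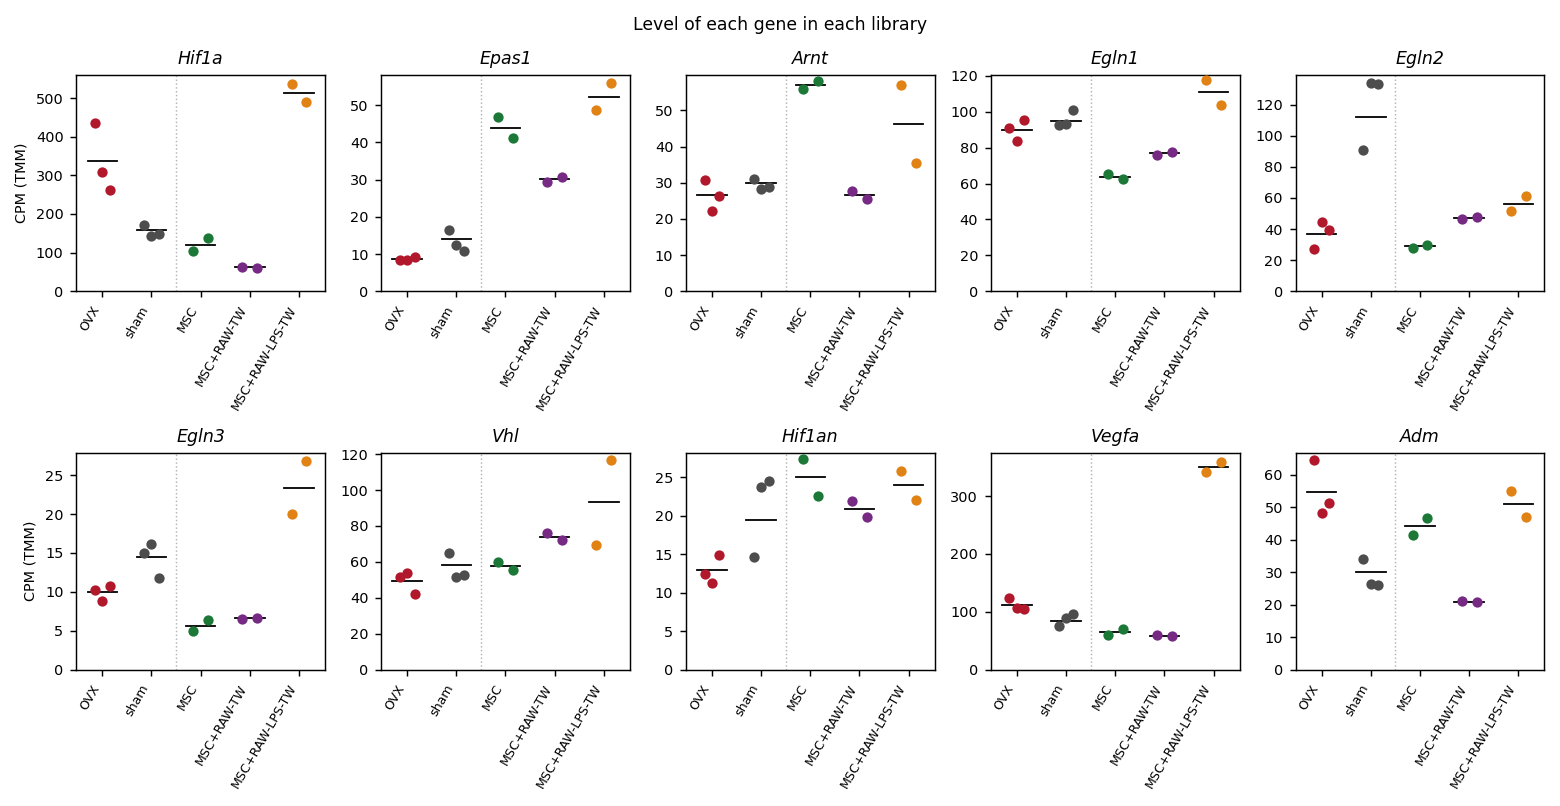
Level of the 10 genes in each of the 12 libraries, in CPM normalized within each experiment (vertical axis, from 0), for OVX, sham, MSC, MSC+RAW-TW and MSC+RAW-LPS-TW. Points are libraries, bars are group means with near-identical libraries counted once, and the dotted line parts the experiments. Both MSC+RAW-LPS-TW libraries lie above all other libraries for Hif1a (490 and 537 CPM), Egln3 (20 and 26.8 CPM) and Vegfa (342 and 360 CPM), and the sham libraries lie above all others for Egln2 (90.9 to 134 CPM).

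Hif1a (chromosome 12, 73901375 to 73947530) encodes the alpha subunit of HIF-1. It stood at 435, 309 and 263 CPM in OVX replicates 1 to 3 and at 171, 143 and 149 CPM in sham replicates 1 to 3. All OVX libraries lay above all sham libraries, with OVX replicate 1 furthest away. The difference was 1.07 on the log2 scale (95% interval 0.50 to 1.64, edgeR adjusted p = 0.0289). The call was lost without OVX replicate 1 (0.84, edgeR adjusted p = 0.0651) and without OVX replicate 2 (1.14, edgeR adjusted p = 0.0939). It was also lost once trends of the counts with GC content and gene length were removed from each library (0.25, edgeR adjusted p = 0.394). The GC content of genes correlated with their level relative to the other BMM libraries at Spearman's rho of -0.605 to -0.341 in OVX and 0.214 to 0.514 in sham, across 15763 genes, and Hif1a has the lowest GC content of the 10 genes (41.0%). Marker sums of other cell types parted the groups too. The 8 neutrophil markers summed to 1200 to 1330 CPM in OVX and 807 to 943 CPM in sham, carried by S100a8 and S100a9, with 5 of the 8 higher in mean and 3 lower (Elane, Mpo and Camp). The 12 macrophage markers summed to 42500 to 47100 CPM in OVX and 57800 to 61900 CPM in sham (9 of 12 lower in OVX), mostly Lyz2 (means of 37700 and 49900 CPM). The 6 osteoclast markers summed to 283 to 292 CPM in OVX and 464 to 606 CPM in sham (4 of 6 lower). The part of these markers in the result was not tested.

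In the second experiment, Hif1a stood at 104 and 137 CPM in MSC, 62.3 and 61.2 CPM in MSC+RAW-TW and 537 and 490 CPM in MSC+RAW-LPS-TW. The MSC+RAW-LPS-TW libraries were the highest of the series, BMMs included, although the tables were normalized apart. Against MSC the log2 fold change was 2.09 (95% interval 1.73 to 2.45, edgeR adjusted p = 2.14e-07). Against MSC+RAW-TW it was 3.02 (95% interval 2.52 to 3.53, edgeR adjusted p = 1.67e-07), and 2.1 with the trends removed (edgeR adjusted p = 6.78e-06). The increase over MSC was called in all 14 alternatives, at 1.91 to 2.30. MSC+RAW-TW against MSC gave -0.93 (edgeR adjusted p = 0.00423), which did not reach 2-fold and was -0.05 with the trends removed (edgeR adjusted p = 0.862). The GC correlation of the MSC+RAW-TW libraries was 0.383 to 0.387, against -0.31 to -0.141 in the other MSC libraries. Hif1a shares 330 exon bases, 5.6% of its length, with the antisense gene Gm15283, which held 904 counts over all libraries where Hif1a held 94549.

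Epas1 (chromosome 17, 86753700 to 86833410), the other alpha subunit, followed another order. It was lowest in BMMs, at 8.50, 8.52 and 9.24 CPM in OVX and 16.4, 12.4 and 10.9 CPM in sham. It stood at 46.8 and 41.1 CPM in MSC, 29.3 and 30.8 CPM in MSC+RAW-TW and 48.6 and 55.9 CPM in MSC+RAW-LPS-TW. The OVX libraries lay below the sham libraries, but the difference of -0.69 on the log2 scale missed the threshold (95% interval -1.20 to -0.17, edgeR adjusted p = 0.0803). MSC+RAW-LPS-TW against MSC gave 0.24 (95% interval -0.09 to 0.58, edgeR adjusted p = 0.33), an interval that leaves out a doubling. Against MSC+RAW-TW the difference was 0.77 (edgeR adjusted p = 0.00618), under 2-fold.

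The balance of the alpha subunits differed between the groups of libraries. Per kb of gene length, Hif1a exceeded Epas1 by a ratio of 48.5, 34.3 and 27.0 in OVX and of 9.87, 10.9 and 12.9 in sham. The ratio was 2.11 and 3.15 in MSC, 2.02 and 1.88 in MSC+RAW-TW and 10.5 and 8.30 in MSC+RAW-LPS-TW. The OVX and sham ratios did not overlap, nor did those of MSC+RAW-LPS-TW and MSC. These ratios were not tested, and the OVX values carry the same GC trend as Hif1a itself. Of the paralogs of the subunits, Hif3a did not exceed 1.56 CPM in any library and Arnt2 did not exceed 6.39 CPM.

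Arnt (chromosome 3, 95434388 to 95497240), the partner of both alpha subunits, stood at 30.8, 22.2 and 26.4 CPM in OVX and 31.1, 28.3 and 28.9 CPM in sham. The BMM groups overlapped (log2 fold change -0.19, 95% interval -0.64 to 0.27, edgeR adjusted p = 0.58). For the MSC groups it was at 55.9 and 58.1 CPM in MSC, 27.7 and 25.4 CPM in MSC+RAW-TW, and 57.0 and 35.5 CPM in MSC+RAW-LPS-TW. Both MSC+RAW-TW libraries lay below all the others, while the MSC+RAW-LPS-TW libraries were far apart. Arnt was called lower in MSC+RAW-TW than in MSC at -1.07 (95% interval -1.60 to -0.54, edgeR adjusted p = 0.00524), but at -0.76 it no longer reached 2-fold once the trends were removed. Between these groups macrophage markers summed to 36300 to 36800 CPM in MSC+RAW-TW and 28100 CPM in MSC (6 of 12 higher), mostly Lyz2 (means of 26500 and 21600 CPM). Stromal markers summed to 2170 to 2180 CPM and 2730 to 2870 CPM (10 of 13 lower). The part of these markers in the MSC+RAW-TW results was not tested. Per kb, Hif1a exceeded Arnt by 13.6 to 19.2 in OVX and by 12.8 to 18.7 in MSC+RAW-LPS-TW, and by 2.53 to 7.47 in the other groups.

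**Figure D2:**
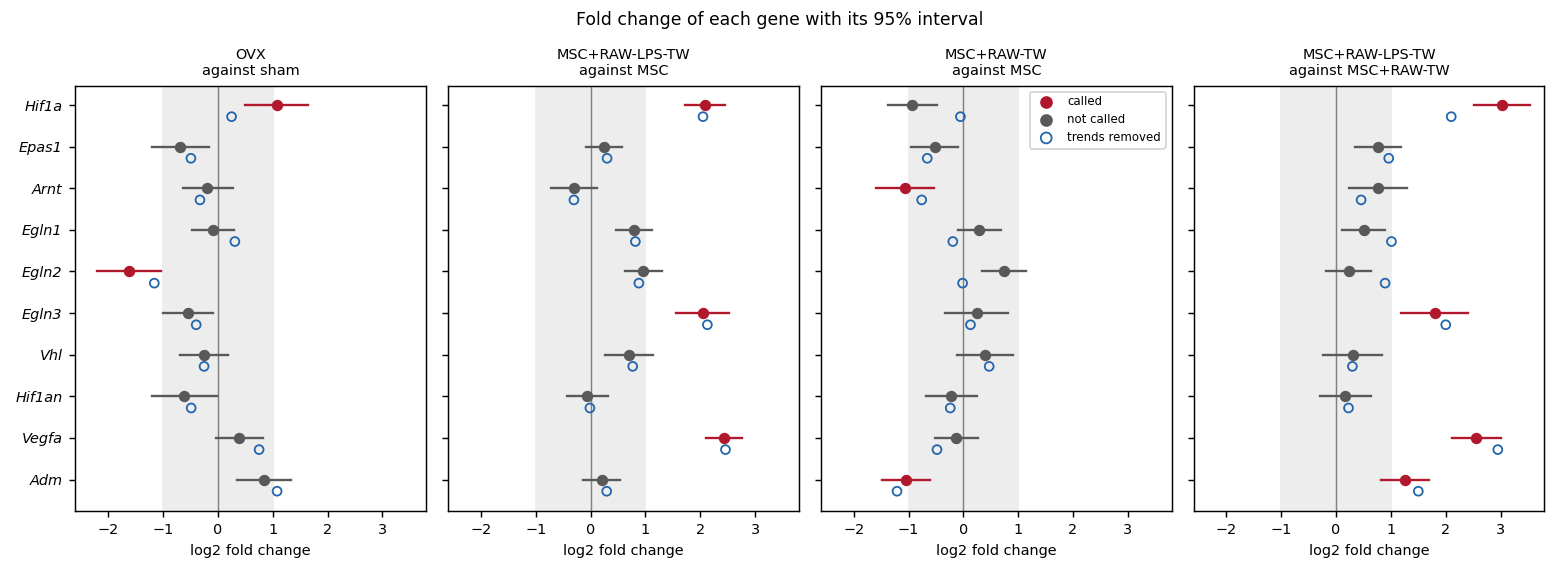
Log2 fold change of the 10 genes (rows) in the 4 comparisons (panels). Filled points with lines are the edgeR estimate and its 95% interval, red where the gene was called and gray where it was not, open blue circles are the estimate with GC and length trends removed, and the gray band marks changes under 2-fold. Hif1a in OVX against sham moves from 1.07 to 0.25 when the trends are removed, while Hif1a, Egln3 and Vegfa stay above 2-fold in both comparisons of MSC+RAW-LPS-TW.

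Of the prolyl hydroxylases, Egln2 was the one called in OVX against sham. Egln2 (chromosome 7, 27158658 to 27166802), a largely nuclear member of the family, stood at 27.2, 44.2 and 39.1 CPM in OVX and at 90.9, 134 and 133 CPM in sham. Every OVX library was below every sham library. The log2 fold change was -1.62 (95% interval -2.21 to -1.03, edgeR adjusted p = 0.00921), and it placed Egln2 at percentile 1.6 of all genes tested. Egln2 has the highest GC content of the 10 genes (61.0%), and with the trends removed the estimate was -1.16 (edgeR adjusted p = 0.012), still called. It was called in all 15 alternatives, between -1.87 and -1.16. Among the co-culture and MSC libraries it stood at 28.1 and 29.4 CPM in MSC, 46.5 and 47.8 CPM in MSC+RAW-TW and 51.4 and 61.1 CPM in MSC+RAW-LPS-TW. Egln2 was higher in MSC+RAW-LPS-TW than was measured in MSC by 0.96 on the log2 scale, just under the fold limit (edgeR adjusted p = 0.000338). The MSC+RAW-TW estimate of 0.74 against MSC (edgeR adjusted p = 0.00905) became -0.014 with the trends removed.

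Egln1 (chromosome 8, 124908587 to 124949324), also known as PHD2 and regarded as the main oxygen sensor in most cells, was steady in BMMs. It stood at 90.8, 83.7 and 95.6 CPM in OVX and 92.4, 93.0 and 101 CPM in sham. The groups overlapped and the log2 fold change was -0.09 (95% interval -0.48 to 0.30, edgeR adjusted p = 0.766), with its sign turned to 0.31 when the trends were removed. Against MSC (65.2 and 62.5 CPM), the MSC+RAW-LPS-TW libraries at 118 and 104 CPM differed by 0.80 on the log2 scale (95% interval 0.47 to 1.12, edgeR adjusted p = 0.00114), under 2-fold. MSC+RAW-TW, at 76.2 and 77.5 CPM, lay between them. Against MSC+RAW-TW the MSC+RAW-LPS-TW estimate was 0.50 (edgeR adjusted p = 0.0436), and 1.01 with the trends removed, where it was called.

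Egln3 (chromosome 12, 54178981 to 54203860) encodes the hydroxylase known as PHD3, which is itself a hypoxia-induced target of HIF. It was the least abundant of the family in every library, at 10.2, 8.86 and 10.8 CPM in OVX and 15, 16.2 and 11.8 CPM in sham. The OVX libraries lay below the sham libraries, but the difference of -0.54 missed the threshold (95% interval -1.0 to -0.08, edgeR adjusted p = 0.115). Across the second experiment it stood at 4.96 and 6.36 CPM in MSC, 6.53 and 6.62 CPM in MSC+RAW-TW and 20 and 26.8 CPM in MSC+RAW-LPS-TW. The increase was 2.05 on the log2 scale over MSC (95% interval 1.56 to 2.53, edgeR adjusted p = 6.48e-06) and 1.80 over MSC+RAW-TW (95% interval 1.19 to 2.41, edgeR adjusted p = 0.00016). Both were called in all 14 alternatives. The MSC+RAW-TW libraries lay just above the MSC libraries, and that difference missed the threshold (0.25, 95% interval -0.33 to 0.82, edgeR adjusted p = 0.515).

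The makeup of the hydroxylase transcripts differed accordingly. Per kb of gene length, Egln2 gave 50.9% to 59.9% of the summed transcripts of the 3 genes in sham libraries and 25.1% to 37.2% in OVX libraries, while Egln1 gave 32.5% to 40.3% and 54.9% to 65.1%. The leading hydroxylase was thus Egln2 in each sham library and Egln1 in each OVX library. The summed level was 63.8 to 80.3 CPM per kb in sham and 38.8 to 44.6 in OVX. In the second experiment Egln1 led in every library, at 47.5% to 60.4% of the sum, and the share of Egln3 was 12.8% and 16.6% in MSC+RAW-LPS-TW against 6.05% to 7.89% in the other 2 groups. The sum there was 30.0 and 30.3 CPM per kb in MSC, 40.3 and 41.1 in MSC+RAW-TW and 58.8 and 60.8 in MSC+RAW-LPS-TW. These shares were not tested, and they do not correct for the GC trends.

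**Figure D3:**
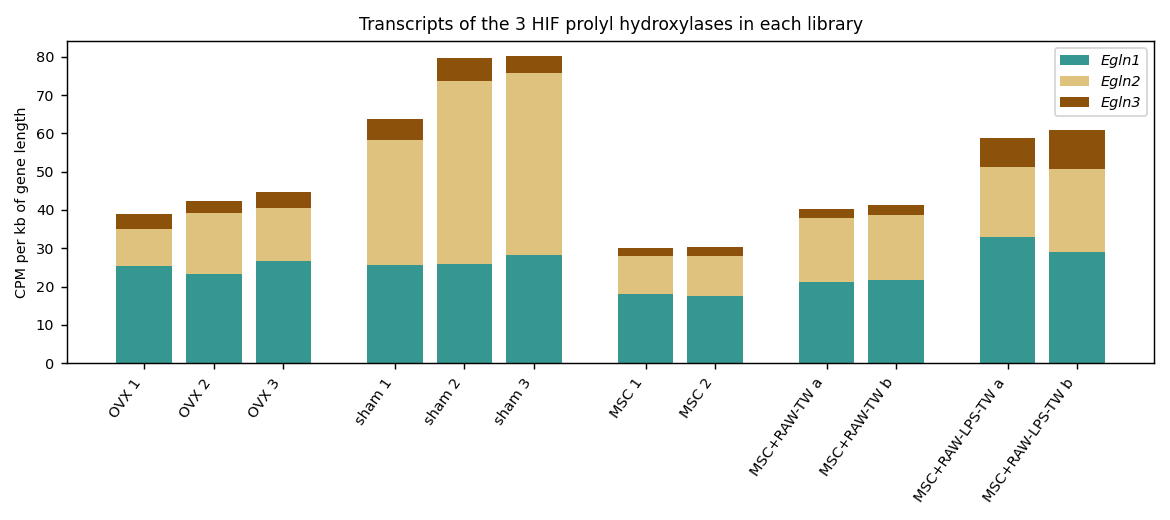
Stacked levels of the prolyl hydroxylase genes Egln1, Egln2 and Egln3 in each library, in CPM per kb of gene length (vertical axis, from 0). Egln2 makes up the larger part in the 3 sham libraries and Egln1 in the other 9, and Egln3 is most visible in MSC+RAW-LPS-TW, at 12.8% and 16.6% of the sum.

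Hif1an (chromosome 19, 44562850 to 44576274), the asparagine hydroxylase, was called in none of the comparisons. It stood at 12.4, 11.3 and 14.9 CPM in OVX and 14.7, 23.7 and 24.6 CPM in sham, with an overlap through sham replicate 1. The log2 fold change was -0.61 (95% interval -1.20 to -0.02, edgeR adjusted p = 0.158). The 6 libraries of the second experiment lay between 19.8 and 27.4 CPM, and MSC+RAW-LPS-TW against MSC gave -0.06 (95% interval -0.44 to 0.32, edgeR adjusted p = 0.871). Vhl (chromosome 6, 113623959 to 113631633), which recognizes the hydroxylated alpha subunit for destruction, lay between 42.3 and 64.9 CPM in all BMM libraries. The OVX and sham libraries overlapped (-0.25, 95% interval -0.70 to 0.19, edgeR adjusted p = 0.421). It stood at 59.7 and 55.3 CPM in MSC, 76.1 and 72.1 CPM in MSC+RAW-TW and 69.4 and 117 CPM in MSC+RAW-LPS-TW. The MSC+RAW-LPS-TW libraries were furthest apart, and the difference from MSC of 0.70 (edgeR adjusted p = 0.0213) was 0.28 without MSC+RAW-LPS-TW replicate b (edgeR adjusted p = 0.218).

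Vegfa (chromosome 17, 46016993 to 46032369) encodes the secreted factor that drives the growth of blood vessels and is a classic HIF target. It stood at 124, 106 and 105 CPM in OVX and 76.0, 88.7 and 95.9 CPM in sham. All OVX libraries lay above all sham libraries, yet the difference of 0.39 on the log2 scale missed the threshold (95% interval -0.04 to 0.83, edgeR adjusted p = 0.205), and at 0.75 it still missed it with the trends removed (edgeR adjusted p = 0.0525). For the MSC groups Vegfa stood at 60 and 69.7 CPM in MSC, 59.1 and 57.4 CPM in MSC+RAW-TW and 342 and 360 CPM in MSC+RAW-LPS-TW. This was the largest fold change of the 10 genes against MSC, at 2.43 on the log2 scale or 5.41-fold (95% interval 2.1 to 2.77, edgeR adjusted p = 1.54e-08). Against MSC+RAW-TW it was 2.56 (95% interval 2.11 to 3.01, edgeR adjusted p = 2.94e-07). The MSC+RAW-TW libraries lay just below the MSC libraries, a difference that missed the threshold (-0.13, 95% interval -0.52 to 0.27, edgeR adjusted p = 0.64).

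Adm (chromosome 7, 110627661 to 110629820) encodes adrenomedullin, a vasodilating and angiogenic peptide that is also induced by hypoxia. It stood at 64.5, 48.2 and 51.1 CPM in OVX and 34.1, 26.3 and 26.0 CPM in sham. The libraries did not overlap, and the difference of 0.85 (95% interval 0.35 to 1.34, edgeR adjusted p = 0.0387) passed the adjusted p but not the fold limit. With the trends removed it was 1.08 and was called (edgeR adjusted p = 0.0315). Without OVX replicate 1 the adjusted p was 0.101, without OVX replicate 2 it was 0.103, and without OVX replicate 3 it was 0.0667 (edgeR). Without sham replicate 1 Adm was called (1.06, edgeR adjusted p = 0.0186), and it was called in 3 of the 15 alternatives in all. Among the co-culture and MSC libraries Adm stood at 41.5 and 46.6 CPM in MSC, 21.1 and 20.8 CPM in MSC+RAW-TW and 54.8 and 46.8 CPM in MSC+RAW-LPS-TW. Here it parted from Vegfa: the difference from MSC was 0.20 in MSC+RAW-LPS-TW (95% interval -0.14 to 0.54, edgeR adjusted p = 0.441) and -1.05 in MSC+RAW-TW (95% interval -1.48 to -0.61, edgeR adjusted p = 0.00186). The decrease in MSC+RAW-TW remained with the trends removed (-1.21, edgeR adjusted p = 0.00182), though without MSC replicate 2 it was -0.96 and under 2-fold. Adm was higher in MSC+RAW-LPS-TW than was measured in MSC+RAW-TW by 1.25 (edgeR adjusted p = 0.00022).

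Set in order of level per kb, Hif1a led in OVX (56.9 ± 15.1 CPM per kb, SD, n = 3) ahead of Adm (33.7 ± 5.35). In sham the order was led by Egln2 (40.1), with Hif1a (26.9) and Egln1 (26.4) overlapping behind it. In MSC Adm led (27.2 ± 2.20, n = 2), with Hif1a (20.4 ± 3.91) and Vhl (19.2) overlapping behind it. In MSC+RAW-TW, with 1 sample, Vhl led (24.7), followed by Egln1 (21.4) and Egln2 (16.8), and Hif1a was in place 6 (10.5). In MSC+RAW-LPS-TW Hif1a (87.0 ± 5.64) and Vegfa (81.9 ± 2.98) led with overlapping libraries, well above Adm (31.4 ± 3.52). Epas1 was last of the 10 in both BMM groups, at 1.57 in OVX and 2.51 in sham, where its libraries overlapped those of Hif1an. Counting alone is not a limit here, since the lowest count of any of the 10 genes in a library was 196, for Epas1 in sham replicate 2.

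The genes whose pattern was most like that of Hif1a over the 12 libraries, by Pearson's r of log2 CPM centered within each experiment, were Zfp281 (r = 0.992), Plod2 (r = 0.990) and Steap2 (r = 0.988). For Vegfa they were Ptgs2 (r = 0.990), Epb41l3 (r = 0.989) and Hivep1 (r = 0.988). Each is the extreme of 9723 genes compared, the libraries share group, depth and GC trends, and the values are a description only.

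The receptors of the secreted outputs were present unevenly. Of the VEGFA receptors, Flt1 did not exceed 2.28 CPM in any library, and Kdr, the main signaling receptor, lay at 0.469 to 1.27 CPM in BMMs and 10.7 to 14.3 CPM in the second experiment. The co-receptor Nrp2 was the most abundant, at 225 to 287 CPM in BMMs and 521 to 744 CPM in the second experiment. Nrp1, the other co-receptor, stood at 64.4, 67.3 and 79.7 CPM in OVX and 35.6, 45.4 and 41.9 CPM in sham. Across the second experiment it stood at 155 and 125 CPM in MSC, 85.0 and 89.1 CPM in MSC+RAW-TW and 36.7 and 29.4 CPM in MSC+RAW-LPS-TW, where Vegfa was highest, a log2 fold change of -2.08 from MSC to MSC+RAW-LPS-TW (SE 0.17, edgeR adjusted p = 2.87e-07). The adrenomedullin receptor needs Calcrl together with Ramp2 or Ramp3. Calcrl stood at 24.2, 12.3 and 10.8 CPM in OVX, 9.32, 8.48 and 7.61 CPM in sham, 13.7 and 19.9 CPM in MSC, 5.67 and 4.4 CPM in MSC+RAW-TW and 36.8 and 31.5 CPM in MSC+RAW-LPS-TW. Ramp2 did not exceed 1.55 CPM in any library, and Ramp3 reached 2.25 and 2.52 CPM in MSC+RAW-LPS-TW and at most 0.755 CPM elsewhere. Ramp1, which makes Calcrl a receptor of calcitonin gene-related peptide, was called higher in OVX (9.17, 12.6 and 12.1 CPM) than in sham (5.83, 5.63 and 4.36 CPM) at 1.06 (SE 0.25, edgeR adjusted p = 0.0284). Endothelial markers, the cells best known for these receptors, summed to 19.3 to 41.5 CPM in all libraries.

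**Figure D4:**
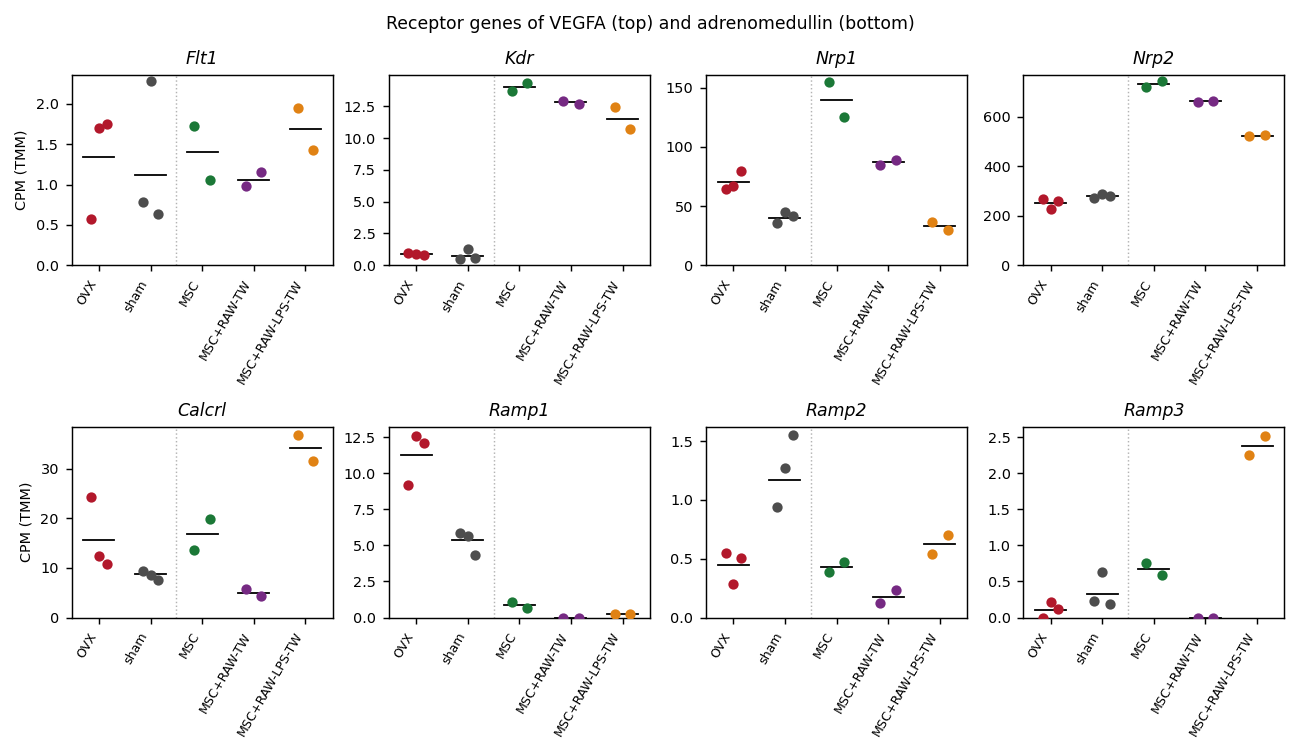
Level in each library of the receptor genes of VEGFA (top row, Flt1, Kdr, Nrp1 and Nrp2) and of adrenomedullin and related peptides (bottom row, Calcrl, Ramp1, Ramp2 and Ramp3), in CPM on axes from 0. Points are libraries and bars are group means. Within the second experiment Nrp1 is lowest in MSC+RAW-LPS-TW (29.4 and 36.7 CPM), where Calcrl is highest (31.5 and 36.8 CPM).

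Other genes of the pathway were read from 3 lists, of HIF regulators (17 genes), HIF target genes (51) and angiogenic ligands and receptors (25). In MSC+RAW-LPS-TW against MSC, 31 of the 50 HIF targets tested were called higher and 1 lower, against 5.85% and 5.09% of all genes, with a median log2 fold change of 1.10 where that of all genes was -0.01. Nos2, the inducible nitric oxide synthase and a known LPS-responsive gene of macrophages, stood at 2.22 and 1.35 CPM in MSC and 923 and 806 CPM in MSC+RAW-LPS-TW (log2 fold change 8.88, SE 0.26, edgeR adjusted p = 2.27e-12). Bnip3, a mitophagy receptor, rose by 2.34, Pfkfb3, an activator of glycolysis, by 2.25, and Plod2, a collagen lysyl hydroxylase, by 2.03 on the same scale. The gene called lower was Cxcr4, a chemokine receptor, at 31.4 and 30.0 CPM in MSC and 0.960 and 1.53 CPM in MSC+RAW-LPS-TW (-4.63, SE 0.25, edgeR adjusted p = 2.07e-09). Against MSC+RAW-TW, 28 targets were called higher and 3 lower, against 15.4% and 12% of all genes, with a median of 1.10, and Ak4, a mitochondrial adenylate kinase, was among the higher ones at 2.96. The 3 called lower were Cxcr4 (-3.67) and, named after their values were seen, Aldoc (-1.85) and Pfkfb4 (-1.22). With the trends removed the counts were 30 higher and 1 lower against MSC, and 24 higher and 2 lower against MSC+RAW-TW. Markers of cell types moved with the groups as well. Macrophage markers summed to 14300 to 14800 CPM in MSC+RAW-LPS-TW and 28100 CPM in MSC, largely through Lyz2 (a mean of 9580 against 21600 CPM), with 8 of the 12 lower and 4 higher (Adgre1, Ptprc, Itgam and Cd14). Stromal markers summed to 4160 to 4190 CPM and 2730 to 2870 CPM, with 11 of 13 higher. Neutrophil markers summed to 370 to 557 CPM in MSC+RAW-LPS-TW and 11.7 to 16.4 CPM in MSC, mostly S100a8, with 6 of the 8 higher in mean and 1 lower. Camp, a granule gene, stood at 28.6 and 39.7 CPM in MSC+RAW-LPS-TW and 0.714 and 0.469 CPM in MSC, while S100a9, Mpo, Elane and Ltf lay at 0 to 0.117 CPM in both groups. In MSC+RAW-TW the macrophage and stromal sums were 36300 to 36800 CPM and 2170 to 2180 CPM, and against it 7 of the 12 macrophage markers were lower and 10 of the 13 stromal markers higher in MSC+RAW-LPS-TW. The part of these markers in the counts was not tested.

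Calls in the same target list were fewer in the other comparisons and went both ways, and the list was not tested as a set. In OVX against sham, 2 of 50 were called higher and 6 lower, against 5.39% and 3.08% of all genes, with a median of -0.05. Ndrg1, a stress-response gene, stood at 38.3, 55 and 62.0 CPM in OVX and 366, 422 and 439 CPM in sham (log2 fold change -2.96, SE 0.24, edgeR adjusted p = 0.00179). Car9, a carbonic anhydrase (-1.18), and Hmox1, heme oxygenase (-1.13), were called lower too, and neither stayed called with the trends removed (-0.83 and -0.82). The other 3 lower targets, named after their values were seen, were Nos2 (-2.61), Hk2, a hexokinase (-1.06), and Ndufa4l2, a mitochondrial protein (-1.05). With the trends removed Nos2 (-2.27) stayed called, while Hk2 (-0.82) and Ndufa4l2 (-0.61) did not, which left Ndrg1 and Nos2 of the 6. Cxcr4 (1.43) and Plod2 (1.24) were the 2 targets called higher, of which Cxcr4 remained at 1.36 and Plod2 fell under the fold limit at 0.59 with the trends removed. In MSC+RAW-TW against MSC, 6 targets were called higher and 3 lower, against 6.80% and 9.59% of all genes, with a median of 0.07. Of those with a mean of at least 5 CPM, the largest changes were in Mif, a cytokine (2.1), Aldoa (1.74) and Aldoc (1.3), both aldolases of glycolysis, Higd1a, a mitochondrial protein (1.60), and Tfrc, the transferrin receptor (-1.45). With the trends removed 5 targets were called higher and 1 lower, and Tfrc was at -0.40 and no longer called (edgeR adjusted p = 0.201).

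Of the angiogenic genes, 8 of 25 tested were called higher and 2 lower in MSC+RAW-LPS-TW against MSC, where 5.85% and 5.09% of all genes were. Edn1, the vasoconstrictor endothelin, rose from 1.67 and 2.70 CPM to 16.1 and 16.0 CPM (log2 fold change 2.89, SE 0.28, edgeR adjusted p = 1.44e-06). Vegfc, a lymphatic growth factor, stood at 8.35 and 6.98 CPM in MSC and 39.2 and 36.9 CPM in MSC+RAW-LPS-TW (2.31), while Vegfb stood at 36.1 and 30.4 CPM and at 13.1 and 17.4 CPM (-1.13). The other gene called lower was Nrp1. Angptl4, an inhibitor of lipoprotein lipase, was higher by 1.56. Against MSC+RAW-TW, 10 were called higher and 2 lower, against 15.4% and 12% of all genes, among them Edn1 (4.15), Vegfc (2.77), Calcrl (2.72), Vegfb (-2.44) and Thbs1 (1.46). In MSC+RAW-TW against MSC, 2 were called higher, Vegfb (1.31) and Angptl4 (1.15), and 8 lower, among them Calcrl (-1.69) and Edn1 (-1.26), against 6.80% and 9.59% of all genes. Of these 4, all dropped out of the calls with the trends removed, which left 6 lower and 1 higher. The 6 were Tie1, Ramp1, Ramp3, Ackr3 and, named after their values were seen, the receptor Flt4 (-2.46) and the growth factor Fgf2 (-2.40), and the higher one, named likewise, was Angpt1 (1.12), which had not been called before. Tie1, Ramp1, Ramp3 and Ackr3 held at most 3 counts in each MSC+RAW-TW library. Against that floor per library, Tie1 was at least 37.0-fold lower than in MSC and Ramp1 at least 10.9-fold lower. Those libraries held counts in 19751 and 19657 genes, against 22068 to 24876 genes in the other MSC libraries. The part of this in the low levels was not tested. Against the same floor, MSC+RAW-LPS-TW was higher than MSC+RAW-TW by at least 28.3-fold for Tie1, 3.1-fold for Ramp1, 29.9-fold for Ramp3 and 30.8-fold for Ackr3. In OVX against sham, 4 of 22 were called higher and 2 lower, against 5.39% and 3.08% of all genes. Angpt1, a ligand of the receptor Tek, stood at 12.6, 10.4 and 12.3 CPM in OVX and 3.33, 4.43 and 3.54 CPM in sham (1.69). Edn1 (1.69) and the antiangiogenic matrix protein Thbs1 (1.38) were also higher, as was Ramp1, while Angptl4 (-1.02) and, named after its value was seen, the chemokine receptor Ackr3 (-1.08) were lower. With the trends removed Edn1 (1.44), Thbs1 (1.41), Ramp1 (1.39) and Ackr3 (-1.07, edgeR adjusted p = 0.049) were still called and Angpt1 (0.74) and Angptl4 (-0.74) were not.

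Of the regulators, the chaperone Hsp90aa1, which stabilizes the HIF1A protein, stood at 183, 240 and 393 CPM in OVX and 87.5, 99.3 and 101 CPM in sham (log2 fold change 1.52, SE 0.32, edgeR adjusted p = 0.0212), and the call was lost with the trends removed (1.16, edgeR adjusted p = 0.115). The gene called lower was the paralog Hif3a, at 0.0888 to 0.122 CPM in OVX and 0.781 to 1.55 CPM in sham (-3.29, SE 0.59, edgeR adjusted p = 0.013). Hsp90aa1 was also called higher in MSC+RAW-LPS-TW than was measured in MSC (1.03) and than in MSC+RAW-TW (1.72). Called counts of the list were 1 higher and 1 lower of 17 in OVX against sham, 2 higher of 16 in MSC+RAW-LPS-TW against MSC (the other being Arnt2, at 1.89), 3 higher and 1 lower in MSC+RAW-TW against MSC, and 7 higher and 2 lower in MSC+RAW-LPS-TW set against MSC+RAW-TW. The shares of all genes called higher and lower in these comparisons were, in the same order, 5.39% and 3.08%, 5.85% and 5.09%, 6.80% and 9.59%, and 15.4% and 12%. Of the listed subunits of the VHL ubiquitin ligase, 3 were called in MSC+RAW-TW against MSC, with Elob at 646 and 631 CPM against 207 and 215 CPM in MSC (1.63), Rbx1 at 1.02 and Eloc at 29.6 and 31.9 CPM against 91.9 and 98.4 CPM (-1.61). Eloc was at -0.84 and under 2-fold with the trends removed, and Cul2, at -0.48 (edgeR adjusted p = 0.141), was not called. Rack1, which competes with HSP90 for HIF1A, was at 1.03 there. In MSC+RAW-LPS-TW set against MSC+RAW-TW, Cited2 (1.24), Eloc (1.20) and Siah2 (1.18) were called higher too, and the 2 called lower were Elob (-1.26) and, named after its value was seen, Rack1 (-1.01). With the trends removed Cited2, Siah2 and Rack1 (-1.02) stayed called, while Elob (-0.80) and Eloc (0.41) did not.

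**Figure D5:**
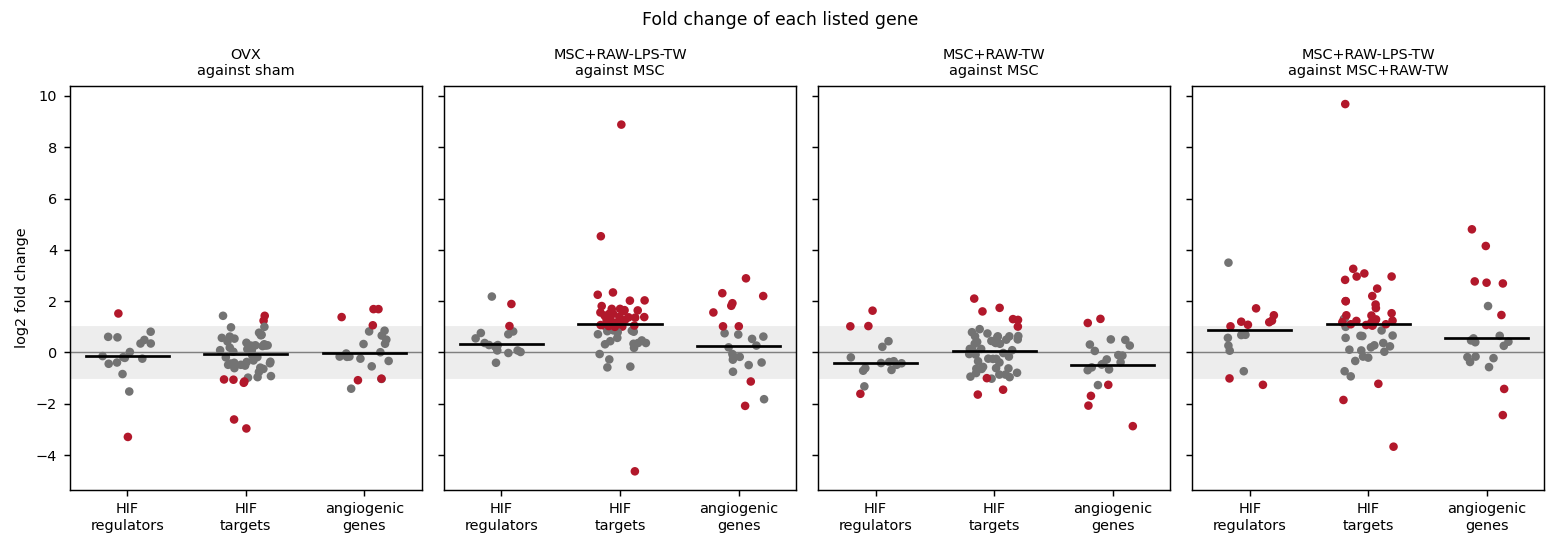
Log2 fold change of each listed HIF regulator, HIF target and angiogenic gene (points) in the 4 comparisons (panels), red where called and gray where not, with the list median as a black bar and changes under 2-fold as a gray band. Genes with at most 3 counts in every library of a compared group are left out of the points. The HIF target median is 1.10 in both comparisons of MSC+RAW-LPS-TW and -0.05 in OVX against sham.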

How the data were processed

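Groups came from the treatment field of the labels. Per the labels and methods, the authors trimmed read pairs of 12 poly(A) libraries with Trim Galore 0.6.7, mapped them to GRCm38 with HISAT2 2.1.0 and counted them with featureCounts 2.0.1. The strand setting is not given in the sources used here. The deposited values are raw counts on 55487 Ensembl genes, not normalized or filtered. Column names do not tell the libraries of MSC+RAW-TW or of MSC+RAW-LPS-TW apart by their titles, so these were named a and b. Among genes with 1 to 20 counts, 60.0% to 71.4% of counts per library were even, so counts are not single independent molecules.

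Counts of near-identical libraries were summed (chi-square over its sampling value 2.58 and 2.78, or 3.07 and 3.35, in genes of low and high count, against 23.33 to 149.85 in high-count genes of the other pairs). Differential expression used edgeR 4.0.16 (TMM, filterByExpr, quasi-likelihood F-test), with 1 fit per experiment and 3 and 2 residual degrees of freedom. Alternatives were RLE, other filters, DESeq2 1.42.0, all libraries kept, fits after each library's trend with GC content and then length (lowess, span 0.3) was removed, blocks, only the compared groups and leaving out each library. On simulated data edgeR recovered 200 of 200 genes changed 4-fold for OVX against sham, with 3 false calls among 16325 genes, and 200 of 200 for MSC+RAW-LPS-TW against MSC, with 4 among 18606. The simulated counts had the same spread for all genes and no GC or length trends, and the changed genes were all well counted. This recovery checks the code only and gives no error rate for these libraries. The named genes are the 10 genes and, per list and comparison, up to 5 called genes with the largest change and a mean of at least 5 CPM, beside the receptors and paralogs. Tie1, Ramp1, Ramp3 and Ackr3 at the floor of 3 counts, which covers counting error only, were named after their values were seen. The members, lists and tests were chosen with earlier results of these data known.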

Additional observations from a re-analysis of the deposited data

How the results depend on the processing

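Of 570 estimates for the 10 genes under alternatives, 547 kept their direction and their side of the thresholds, 6 lost a call, 9 gained one and 8 changed sign, none of the latter called. Those that changed sign were Egln1 in OVX against sham with GC and length trends removed (0.31) and also with the replicate block (0.328), Egln1 (-0.19) and Egln2 (-0.014) in MSC+RAW-TW against MSC with trends removed, and, leaving out single libraries, Hif1an (-0.207 to 0.0879) and Arnt (-0.711 to 0.00195) in MSC+RAW-LPS-TW against MSC and Vhl in MSC+RAW-LPS-TW set against MSC+RAW-TW (-0.118 to 0.639). The cause was not tested. The alternatives are not independent checks. Leaving out 1 library of a near-identical pair kept the other library as that sample. In the MSC fits, some of the libraries left out belonged to neither of the groups compared.

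With no fold limit the calls were 2193 genes and 25 listed genes in OVX against sham (1419 and 16 as reported), 4286 genes and 6 of the 10 in MSC+RAW-LPS-TW against MSC (2243 and 3), 5862 genes, 4 of the 10 and 42 listed genes in MSC+RAW-TW against MSC (3360, 2 and 23), and 7 of the 10 in MSC+RAW-LPS-TW set against MSC+RAW-TW (4). With trends removed OVX against sham gave 541 genes, 199 of them higher, and 9 listed genes, and MSC+RAW-TW against MSC gave 2103 genes, 1075 of them higher (1394 as reported), and 1 of the 10. As reported, 903 genes were higher in OVX. Same-numbered OVX and sham libraries deviated together at r = 0.409, -0.026 and 0.353, and those of unlike number at -0.482 to 0.304. Sham replicates 2 and 3 are near-identical, so these values do not settle whether the number pairs the libraries. The replicate block with all libraries kept left the calls among the 10 genes as they were (Hif1a 1.10, Egln2 -1.70), and with the trends removed as well it gave 923 genes, 408 of them higher, and 10 listed genes. No paired analysis was possible for the MSC groups by replicate number because both MSC+RAW-TW columns carry the number 1 and the MSC+RAW-LPS-TW columns carry 2 and 3, so the replicate block planned there was not run. Leaving out single libraries gave 309 to 2390 genes, 1 to 3 of the 10 and 6 to 20 listed genes in OVX against sham, where 309 was without OVX replicate 2, 678 without OVX replicate 1 and 2390 without sham replicate 1. It gave 3 to 5 of the 10 in MSC+RAW-LPS-TW against MSC, the 5 without MSC+RAW-LPS-TW replicate a (Egln2 and Vhl added), and 1 to 3 in MSC+RAW-TW against MSC, the 1 without MSC replicate 2 (Adm lost) and the 3 without MSC replicate 1 (Hif1a added). The library series or run suffix in the column names, which puts 1 library of each MSC group in each block and was chosen after the data were seen, changed no call of the 10.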
